A study of Mus musculus with 6 samples.

Results

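The NF-kB family examined here comprises 10 genes, the 5 Rel-type subunits (Nfkb1, Nfkb2, Rela, Rel and Relb) and 5 genes of the IkB family (Nfkbia, Nfkbib, Nfkbie, Nfkbiz and Bcl3), chosen by gene symbol from the 16403 genes of the table. All 10 were found once each, and all 10 passed the filter on low counts that left 12564 genes for testing. Messenger RNA was measured by bulk sequencing of LSK cells, the lineage-negative, Sca-1-positive, Kit-positive bone marrow cells among which blood stem cells and multipotent progenitors are found. The LIP group was 3 libraries from C57BL/6 mice that had carried a ligature around a tooth for 7 days (ligature-induced periodontitis, a model of local gum inflammation), and the NL group was 3 libraries from unligated C57BL/6 mice given no treatment. Each library pooled LSK cells of 3 mice, so the spread between libraries is a spread between pools, and no age of the animals is stated in the labels. The comparison asks what inflammation in the gum does to gene expression in marrow progenitors.

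NF-kB factors work as dimers of Rel proteins. In resting cells most dimers are held in the cytoplasm by IkB proteins, and signals from Toll-like, IL-1 and TNF receptors activate the IKK kinases, which mark the classical IkB proteins for degradation and let the dimers enter the nucleus. Several genes of the family, Nfkbia and Nfkb2 among them, are known NF-kB targets and so form feedback loops, and in blood progenitors the pathway is known for its part in emergency myelopoiesis and in stem cell maintenance. Protein degradation and nuclear entry are not seen in mRNA.

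For this feedback the promoter letters are of interest. RefSeq windows on GRCm38.p6, from 250 bases before to 50 bases after a transcript start, were on hand for 7 of the 10 members (all but Nfkb1, Relb and Nfkbiz). They were searched on both strands for the kappa B consensus motif, the 10-base sequence bound by NF-kB dimers, and overlapping matches were merged. Nfkbia, Rel, Nfkb2 and Bcl3 held a match, and Rela, Nfkbib and Nfkbie held none in this window. Among all 32851 windows, 5.8% held a match, and counted by gene, 6.55% of the 27025 genes with a window did. The stretches below are shown because they carry these matches in the genes whose mRNA is described next, written 5′ to 3′ on the gene's strand with the match in capitals.
Nfkbia, chr12:55492648-55492747, minus strand, match 29 to 20 bases before the start: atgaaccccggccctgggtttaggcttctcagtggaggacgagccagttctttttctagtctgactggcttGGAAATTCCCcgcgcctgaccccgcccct
Rel, chr11:23770970-23771069, minus strand, match 92 to 82 bases before the start: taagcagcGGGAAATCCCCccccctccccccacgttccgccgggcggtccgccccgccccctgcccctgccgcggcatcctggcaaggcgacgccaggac
Nfkb2, first start, chr19:46304688-46304717, plus strand, match 39 to 30 bases before it: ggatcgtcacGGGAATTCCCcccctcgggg
Nfkb2, first start, chr19:46304716-46304745, plus strand, match 11 to 2 bases before it: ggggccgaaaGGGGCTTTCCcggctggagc
Nfkb2, second start, chr19:46305695-46305724, plus strand, match at bases 11 to 20 of the transcript: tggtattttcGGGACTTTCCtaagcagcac
Bcl3, chr7:19822734-19822763, minus strand, match at bases 3 to 12 of the transcript: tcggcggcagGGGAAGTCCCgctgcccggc
The match of Rel is a run of 11 bases in which a pair of overlapping matches was merged. The Nfkb2 starts are numbered among its 3 windows, the first of which opens at 46304487, inside the gene's span from 46300994. Bases around the opening of that span were not searched. The third Nfkb2 window holds the same match as the second, there 225 to 216 bases before the start. A match is a description of letters and not evidence of binding in LSK cells.

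In LSK cells of LIP mice, Rela mRNA was slightly higher and Nfkbia, Nfkbiz and Nfkb2 mRNAs were slightly lower than in NL mice, and the other 6 members were not called. A call here is an adjusted p below 0.05 in edgeR's quasi-likelihood test with Benjamini-Hochberg adjustment over all 12564 tested genes. The background was high, since 29.9% of all tested genes passed this test, 14.1% with higher and 15.8% with lower values in LIP. Against it, 1 of the 10 members was higher and 3 were lower, which is near the background share and is not a result about the family. The largest change, that of Nfkbiz, was 0.795-fold, so no member reached a 1.5-fold difference, whereas 188 genes of the table were called at that size or more. The median log2 fold change was 0.01 over the 5 subunits and -0.10 over the 5 IkB genes, beside 0.00 over all tested genes. Scaling set the balance of directions: 47.2% of all called genes were higher with TMM scaling, 67.9% with total counts alone, and 89.4% on the deposited TPM scale, where 2 members (Nfkb1 and Rela) were called higher and none lower. With 1 library left out, between 0 and 1 members were higher and between 1 and 3 lower, with 0 higher without LIP-3 or NL-3 and 1 lower without LIP-2. In bulk RNA, fewer cells of a type that expresses a gene and less RNA per cell cannot be told apart.

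Library totals lay between 17780853 and 18841103 estimated counts, and the family members had between 131 and 4921 counts in a library, so none was near the detection floor of 3 counts. The first principal component of all tested genes, with 40.7% of the variance, separated LIP from NL. Kit, which was used to sort the cells, had 582 ± 9.52 CPM in LIP and 512 ± 3.73 CPM in NL libraries (SD, n = 3 each). CPM are read counts scaled to library size by TMM. Kit was called higher, with a log2 fold change of 0.18 and an edgeR adjusted p of 8.16e-06. It was called in all 20 alternative fits. The Sca-1 gene Ly6a had 37.0 ± 2.40 CPM in LIP and 38.8 ± 0.803 CPM in NL, not called. Markers of lineages that the sort was meant to remove also moved with the groups. All counts of called genes in this paragraph stand beside 14.1% of all tested genes called higher and 15.8% called lower. Of 11 tested neutrophil markers 9 rose and none fell. Their summed level was 1222 to 1285 TPM (the deposited level per transcript length) in LIP and 826 to 870 TPM in NL libraries. S100a8 and S100a9 made up most of that sum, averaging 476 and 438.5 TPM in LIP and 375 and 304 TPM in NL. In edgeR with TMM their log2 fold changes were 0.206 and 0.395. The TPM levels in this paragraph are uncentred, and log2(TPM + 1) moved the median of all tested genes by 0.11 towards LIP. Of 11 monocyte and macrophage markers 7 rose and 1 fell (1175 to 1235 TPM in LIP, 896 to 939 TPM in NL). Most of that sum was Ly6c2, at 918 ± 35.6 TPM in LIP and 716 ± 19.7 TPM in NL, with an edgeR log2 fold change of 0.23. Of 10 B-lineage markers 7 rose (157 to 160 TPM in LIP, 111 to 113 TPM in NL). Heat shock and immediate-early genes, which can respond to how cells are handled, went the other way. Of 14 tested members 9 were lower in LIP and none higher (8 and 1 on the uncentred TPM scale). Their summed level was 4089 to 4319 TPM in LIP and 5044 to 5206 TPM in NL. Most of that sum was Hspa8, at 3770 ± 123 TPM in LIP and 4472 ± 93.6 TPM in NL, with an edgeR log2 fold change of -0.375. The heat shock gene Hspa1b had 2.59 ± 0.588 CPM in LIP and 81.8 ± 0.895 CPM in NL. Whether handling differed between the groups was not tested. No marker that was analysed was at 0 in all libraries (the stromal marker Col3a1 was not analysed here), and the mature neutrophil marker Ly6g had between 0 and 3 counts per library. The part of these shifts in the NF-kB family values was not tested.

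Compared per length, Nfkb1 was the most abundant member, followed by Nfkbia, Rela and Nfkbib, and the order was nearly the same in both groups. In LIP libraries the deposited TPM averaged 116 ± 1.70 for Nfkb1, 90.7 ± 4.78 for Nfkbia, 78.7 ± 4.996 for Rela and 46.7 ± 2.88 for Nfkbib (SD, n = 3). In NL libraries the same genes averaged 105 ± 1.33, 93.6 ± 0.211, 65.5 ± 4.13 and 45.9 ± 1.21 TPM. These 4 neighbours in the order did not overlap in either group. Nfkbie and Nfkb2 came next and did not differ beyond their spread, with 19.0 ± 0.813 and 18.7 ± 0.548 TPM in LIP and 17.5 ± 1.179 and 19.1 ± 0.725 TPM in NL libraries. Bcl3 averaged 14.8 ± 1.67 TPM in LIP and 13.35 ± 0.248 TPM in NL, and Relb 8.06 ± 0.398 TPM in LIP and 7.33 ± 0.150 TPM in NL. Rel and Nfkbiz were the least abundant, at 5.45 ± 0.372 and 4.597 ± 0.3001 TPM in LIP and at 5.28 ± 0.445 and 5.31 ± 0.270 TPM in NL, where they did not differ beyond their spread; in LIP every Rel value lay above every Nfkbiz value. Nfkb1 and Rela, the genes of the classical p50 and p65 subunits, thus made up most of the subunit mRNA, with Nfkb1 at 51.1% ± 0.761 and Rela at 34.6% ± 1.21 of the summed subunit TPM in LIP, and 52.0% ± 1.29 and 32.3% ± 1.26 in NL.

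**Figure D1:**
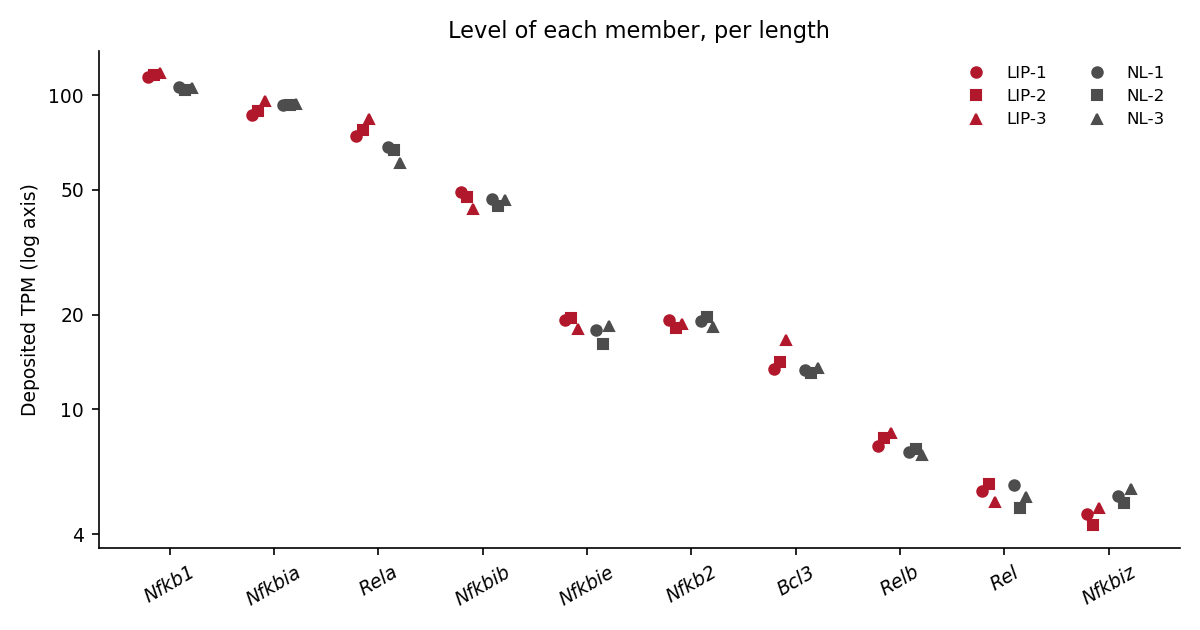
Deposited TPM (log axis) of the 10 members in each library, LIP in red and NL in grey, ordered by the LIP mean. Nfkb1 lies near 116 TPM in LIP and 105 TPM in NL, and Rel and Nfkbiz lie near 5 TPM.

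Of the subunits, Rela (chromosome 19, 5637442 to 5648134), which encodes the transactivating subunit p65, was the single member called higher. It had 109.0, 108.6 and 119.7 CPM in LIP-1, LIP-2 and LIP-3, against 106.8, 106.1 and 95.9 CPM in NL-1, NL-2 and NL-3. The lowest LIP library lay above the highest NL library, though by a narrow gap, and LIP-3 and NL-3 stood at the outer ends. Groups without overlap in CPM were found in 40.9% of all tested genes. The log2 fold change was 0.13 ± 0.04 (SE) and the edgeR adjusted p 0.0168. Without LIP-3 it was 0.08 with an adjusted p of 0.151, and without NL-3 it was 0.08 with an adjusted p of 0.171, so the call rests on each of these libraries. The call was also lost with an offset for transcript length and GC content, which gave 0.07 and an adjusted p of 0.166, and in DESeq2, with 0.13 and an adjusted p of 0.0664. Over 20 alternative fits Rela remained above 0 and was called in 15.

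Nfkb1 (chromosome 3, 135584655 to 135691969) encodes p105, the precursor of p50, and was the subunit with the tightest values. Its level was 253.2, 250.5 and 257.1 CPM in the LIP libraries and 249.1, 248.2 and 249.5 CPM in the NL libraries. The groups did not overlap, as was the case for 40.9% of all tested genes, but the difference was small, with a log2 fold change of 0.03 ± 0.03, a 95% interval from -0.04 to 0.09 and an edgeR adjusted p of 0.571. In the TPM values Nfkb1 was called higher, at 0.14 on the log2(TPM + 1) scale with a limma adjusted p of 0.00607. That scale moved the median of all tested genes by 0.11, and after each library was centred on that median, a step added after the data were seen, Nfkb1 stood at 0.02.

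Nfkb2 (chromosome 19, 46300994 to 46312400) encodes p100, which is processed to p52 in the non-canonical pathway and whose unprocessed form holds Rel proteins as an IkB does. It had 35.3, 32.3 and 33.7 CPM in LIP and 37.2, 39.0 and 35.4 CPM in NL libraries. The groups were adjacent, with LIP-1 and NL-3 apart by less than the spread within either group. The log2 fold change was -0.14 ± 0.06 with an edgeR adjusted p of 0.0481, at the edge of the threshold. It remained below 0 in all 20 alternative fits, from -0.21 to -0.02, but was called in only 7 of them. Without NL-2 it was -0.10 with an adjusted p of 0.25, and without LIP-2 -0.11 with an adjusted p of 0.2, and the call was also lost without LIP-3 (0.0818) or NL-1 (0.105). A long noncoding RNA gene, 4833438C02Rik, and the last part of Psd overlap it by 2045 and 316 bases, and no source used here states whether counting used strand, so shared reads cannot be told apart. Nfkb1 and Bcl3 likewise overlap long noncoding RNA genes, Gm46827 and Gm16174.

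Rel (chromosome 11, 23736847 to 23770969), the gene of the lymphoid subunit c-Rel, and Relb (chromosome 7, 19606217 to 19629438), the partner of p52, were low and overlapped between the groups. Rel had 7.80, 7.95 and 7.11 CPM in LIP and 8.71, 7.43 and 8.03 CPM in NL libraries. Relb had 9.12, 9.46 and 9.93 CPM in LIP and 9.39, 9.76 and 9.22 CPM in NL libraries. The 95% interval of the log2 fold change ran from -0.29 to 0.13 for Rel and from -0.18 to 0.20 for Relb. Changes within these intervals are not excluded.

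**Figure D2:**
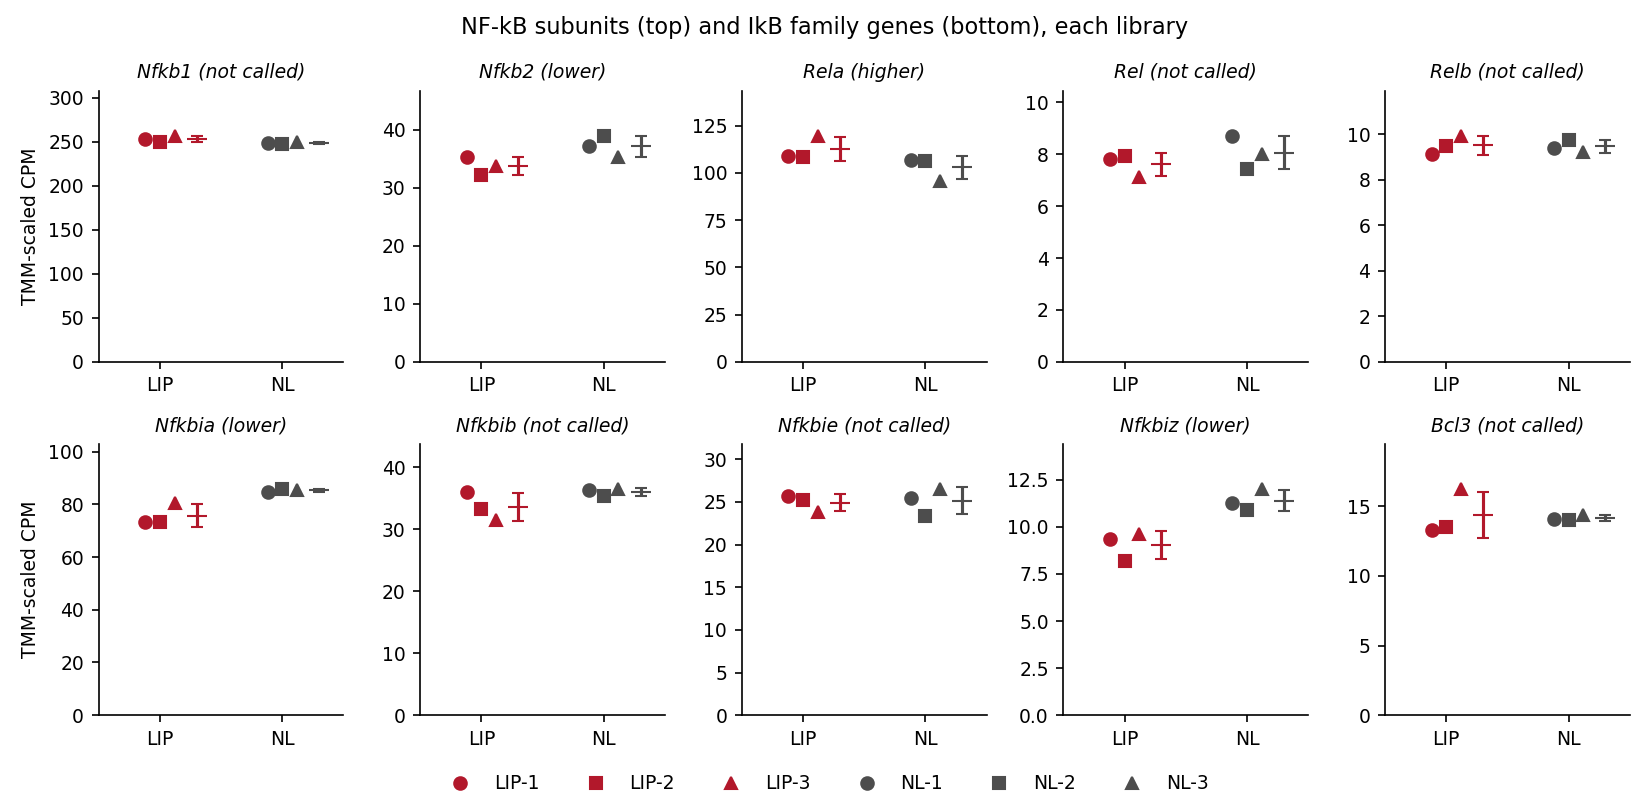
TMM-scaled CPM of the 5 subunit genes (top) and 5 IkB genes (bottom) in LIP (red) and NL (grey) libraries, with the mean and SD (n = 3) beside the points; every axis starts at 0. The groups are apart in Nfkbia and Nfkbiz, narrowly apart in Rela, Nfkb2 and Nfkb1, and overlap in the other 5 genes. Among all tested genes, 40.9% had groups that did not overlap, so this separation is not a result about the family.

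Of the IkB genes, Nfkbia (chromosome 12, 55489409 to 55492647) had the smallest p of the family. It encodes IkB-alpha, the inhibitor that is degraded and remade most quickly after a signal. It had 73.4, 73.1 and 80.6 CPM in LIP, against 84.7, 85.9 and 85.6 CPM in NL libraries. All LIP libraries lay below all NL libraries, LIP-3 nearest to them, and the NL libraries were close to each other. Such a lack of overlap was found in 40.9% of all tested genes, in either direction. The log2 fold change was -0.17 ± 0.04, an 11.3% lower level, with an edgeR adjusted p of 0.00104. The call was kept in 18 of 20 alternative fits, including each one that left out a library, with log2 fold changes from -0.22 to -0.05 over all 20. With an offset for transcript length alone it was -0.13. The median log2 fold change of all genes ran from -0.08 among the shortest genes to 0.04 among the longest (the ends of 4 equal groups by length). The exceptions were the fits on uncentred TPM, where the values were 86.8, 89.4 and 96.1 TPM in LIP and 93.5, 93.5 and 93.8 TPM in NL libraries, and LIP-3 lay above all NL libraries. With the TPM centred as above, Nfkbia stood at -0.16 with a limma adjusted p of 0.0198.

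Nfkbiz (chromosome 16, 55811375 to 55838954), the gene of the inducible nuclear protein IkB-zeta that acts as a cofactor at a subset of NF-kB targets, had the largest fold change of the 10 at a low level. Its CPM was 9.35, 8.21 and 9.62 in LIP and 11.3, 10.9 and 12.01 in NL libraries. The groups did not overlap, as in 40.9% of all tested genes, and the values rest on 157 to 211 counts per library. The log2 fold change was -0.33 ± 0.10, with an edgeR adjusted p of 0.00525. Without LIP-2, the lowest library, it was -0.27 with an adjusted p of 0.0561, and on the log2(TPM + 1) scale -0.17 with a limma adjusted p of 0.0783. The other 17 of 20 alternatives kept the call.

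The remaining classical inhibitors did not pass the test. Nfkbib (chromosome 7, 28758251 to 28766644), which encodes IkB-beta, had 36.1, 33.3 and 31.6 CPM in LIP and 36.4, 35.3 and 36.5 CPM in NL libraries, a log2 fold change of -0.10 with a 95% interval from -0.21 to 0.01. Nfkbie (chromosome 17, 45555700 to 45563169), the gene of IkB-epsilon, had 25.7, 25.2 and 23.8 CPM in LIP and 25.5, 23.4 and 26.5 CPM in NL libraries, with an interval from -0.14 to 0.11. Both overlapped between the groups. Nfkbib shares 715 bases of its span with Ccer2, with the same limit on strand.

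Bcl3 (chromosome 7, 19808462 to 19822824) encodes a nuclear IkB-type protein that binds p50 and p52 dimers. It had 13.3, 13.5 and 16.3 CPM in LIP and 14.1, 14.0 and 14.4 CPM in NL libraries, and LIP-3 stood above the other 5. The log2 fold change was 0.02 with an interval from -0.15 to 0.18, and it was -0.08 without LIP-3. LIP-3 was the highest LIP library in 6 of the 10 members (Nfkb1, Rela, Relb, Nfkbia, Nfkbiz and Bcl3) and the lowest in 3.

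**Figure D3:**
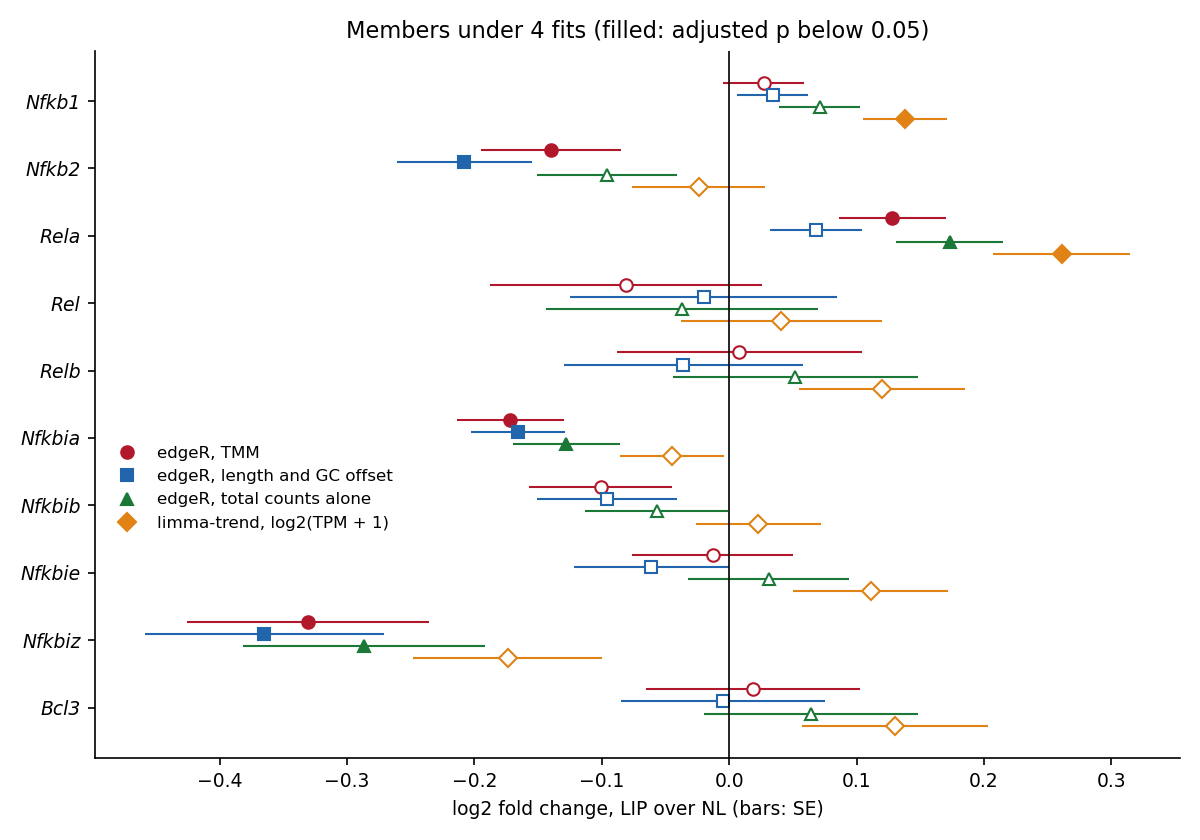
Log2 fold change, LIP over NL, with SE for the 10 members under 4 fits; filled symbols have an adjusted p below 0.05. The log2(TPM + 1) values of all 10 genes lie to the right of the edgeR values, beside a shift of 0.11 in the median of all genes, and Nfkbia, Nfkbiz, Nfkb2 and Rela keep their sign in all 4 fits.

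Ratios between members within a library do not depend on how libraries are scaled to each other. Summed over the family, the IkB genes had 173 to 179 TPM in LIP and 172 to 178 TPM in NL libraries. The subunits had 221 to 234 TPM in LIP and 197 to 207 TPM in NL libraries. Unlike the ratios, these sums depend on that scaling, and log2(TPM + 1) moved the median of all tested genes by 0.11. In edgeR with TMM the median log2 fold change was 0.01 over the subunits and -0.10 over the IkB genes. The ratio of the IkB sum to the subunit sum was 0.785, 0.773 and 0.766 in LIP-1, LIP-2 and LIP-3, against 0.852, 0.848 and 0.903 in NL-1, NL-2 and NL-3. It was thus lower in every LIP library. The ratio of Nfkbia to the subunit sum was 0.400 ± 0.00972 in LIP and 0.462 ± 0.0131 in NL (SD, n = 3 each), again without overlap. Nfkbia over Rela, a pair chosen after its values were seen, was 1.17, 1.15 and 1.14 in LIP and 1.36, 1.39 and 1.54 in NL libraries. These ratios are given as a description, with no test of their own. A trend of fold change with gene length does not cancel in them. The median log2 fold change was -0.08 among the shortest genes and 0.04 among the longest. Nfkbia and Nfkbib, most of the IkB sum, have effective lengths of 1493.5 and 1289.5 bases, against 3896.1 for Nfkb1 and 2566.7 for Rela. The part of this trend in the summed ratios was not tested. A length and GC offset, which treats genes differently, narrowed the difference in log2 fold change between Nfkbia and Rela to -0.23, compared with -0.30 in edgeR with TMM scaling.

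**Figure D4:**
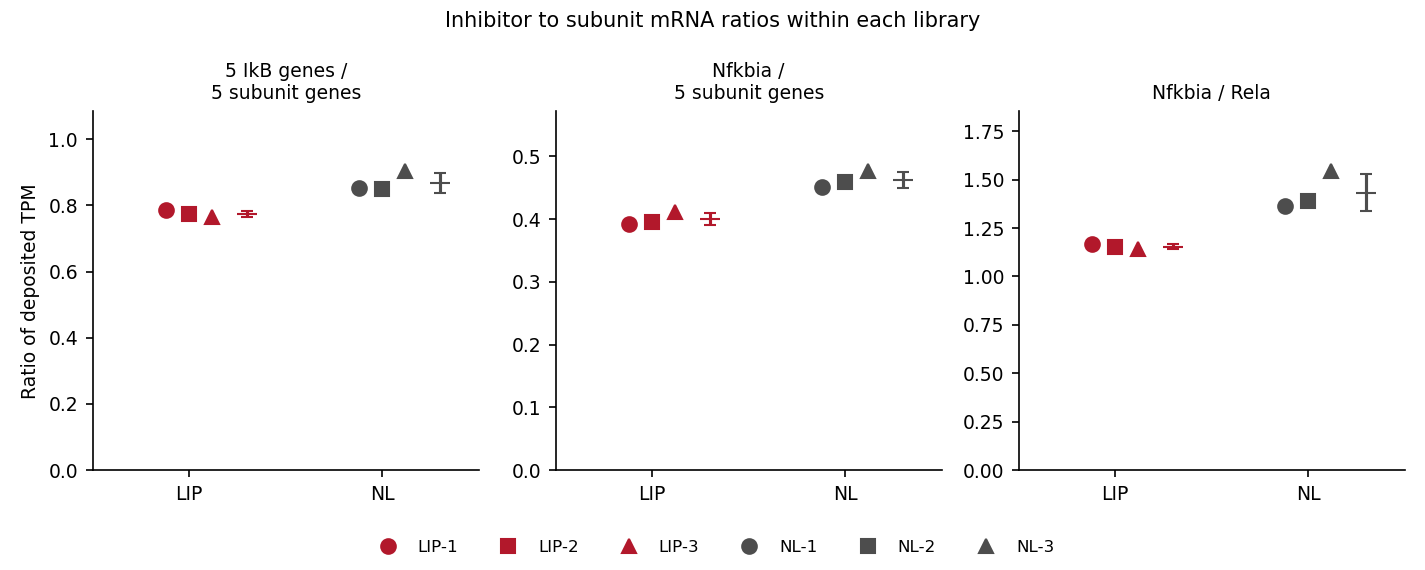
Ratio of deposited TPM in each library for the 5 IkB genes over the 5 subunits, Nfkbia over the 5 subunits, and Nfkbia over Rela, with mean and SD (n = 3); axes start at 0. The LIP libraries lie below the NL libraries in all 3 panels, for example 1.14 to 1.17 in LIP against 1.36 to 1.54 in NL for Nfkbia over Rela. No offset for length or GC content was applied to these ratios.

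Upstream of the family, 3 of 11 genes of the IKK complex and its kinases rose and 1 fell, with a median log2 fold change of 0.09, a count to be read against the 29.9% of all tested genes that were called (14.1% higher, 15.8% lower). Ikbkb, the gene of the catalytic subunit IKK-beta that phosphorylates the classical IkB proteins, had 103 ± 1.41 CPM in LIP and 89.7 ± 3.21 CPM in NL (SD, n = 3 each), a log2 fold change of 0.20 with an edgeR adjusted p of 5.28e-05. Tab1, an activator of the kinase TAK1, rose by 0.31 (37.2 ± 1.46 CPM in LIP, 30.1 ± 1.08 CPM in NL). Both were called in all 20 alternatives. Ikbke rose by 0.14 and Tab2 fell by 0.09, each called in 11 of 20. Among the losses, Ikbke was not called without any 1 of the libraries but NL-3, and Tab2 without LIP-1, LIP-3, NL-1 or NL-2. Tab2 changed sign on uncentred TPM, reaching 0.04. On that scale 7 IKK genes were called higher and 0 lower, and with total counts alone 5 and 0. Chuk and Ikbkg, the other core IKK genes, stood at 0.03 and 0.09 and were not called.

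Of 24 adaptor and ubiquitin ligase genes, 4 rose and 2 fell, with a median of 0.00, again beside 29.9% called among all genes. Card9, an adaptor of myeloid cells downstream of C-type lectin receptors, changed most, with 35.0 ± 1.596 CPM in LIP and 24.2 ± 0.817 CPM in NL, a log2 fold change of 0.53. It was called in all 20 alternatives. Ube2v1 rose by 0.11 and Ube2n, its partner in building K63-linked ubiquitin chains, fell by 0.12, while the TNF receptor adaptor gene Tradd fell by 0.18. The other rises, Tirap by 0.22 and Irak4 by 0.16, are named to complete the count, after their values were seen. Each of these 5 lost its call in between 3 and 8 of its alternatives, and Ube2n reached 0.02 on uncentred TPM. The count of higher adaptor genes was 1 without NL-3 (Card9 alone) and 1 in DESeq2, and it was 9, with 0 lower, on uncentred TPM, where 4568 of all 12564 tested genes were higher and 540 lower.

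Of 15 negative regulators, 1 rose and 1 fell, with a median of -0.02, beside 14.1% of all genes higher and 15.8% lower. On uncentred TPM 8 were higher and 1 lower. Irak3, which encodes the inhibitory kinase-like protein IRAK-M of myeloid cells, rose by 0.37 (48.4 ± 1.09 CPM in LIP, 37.6 ± 1.184 CPM in NL) and was called in all 20 alternatives. Commd1, whose protein promotes removal of p65 from chromatin, fell by 0.28, lacked whole counts, and was called in 18 of 19. Tnfaip3, the gene of the feedback inhibitor A20, stood at 0.14 with an edgeR adjusted p of 0.155. Nlrc3 and Rc3h1 stood at -0.12 and -0.10, neither called. Of the IkB-type ankyrin genes outside the family, Nfkbil1 rose by 0.17, with the call lost in DESeq2 and without LIP-1, LIP-3, NL-1 or NL-2, and Nfkbid stood at -0.02.

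Of 26 tested textbook NF-kB target genes 2 rose and 4 fell, beside 14.1% of all genes higher and 15.8% lower. Their median log2 fold change was 0.02 beside 0.00 over all genes, and on uncentred TPM 10 were higher and 1 lower. Vcam1, an adhesion gene, rose by 0.38 (19.1 ± 0.740 CPM in LIP, 14.8 ± 0.836 CPM in NL), and Lcn2, which is also in the neutrophil marker list, by 0.78. Il15, a lymphoid cytokine gene, fell by 0.42 (17.6 ± 0.255 CPM in LIP, 23.6 ± 0.313 CPM in NL), and the interferon-responsive factor gene Irf1 by 0.23. Vcam1, Lcn2 and Il15 were called in all 20 alternatives and Irf1 in 18, the exceptions being uncentred TPM. Ccnd1 and Xiap, named after their values were seen, fell by 0.14 and 0.10, with calls lost in 7 of 19 and 10 of 20 alternatives. The target list held 35 genes, so the 26 tested leave out part of it. The inflammatory cytokine genes Il1b and Il6 had at most 7 counts in any library, too few for a test. Cxcl2, Ccl2, Ptgs2, Saa3 and Csf2 had at most 4 and were not tested either. Cxcl1 and Nos2 were not analysed here. Tnf stood at 0.12 with 3.24 CPM in LIP and 2.98 CPM in NL, not called. None of these 4 pathway counts is a result about its list.

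**Figure D5:**
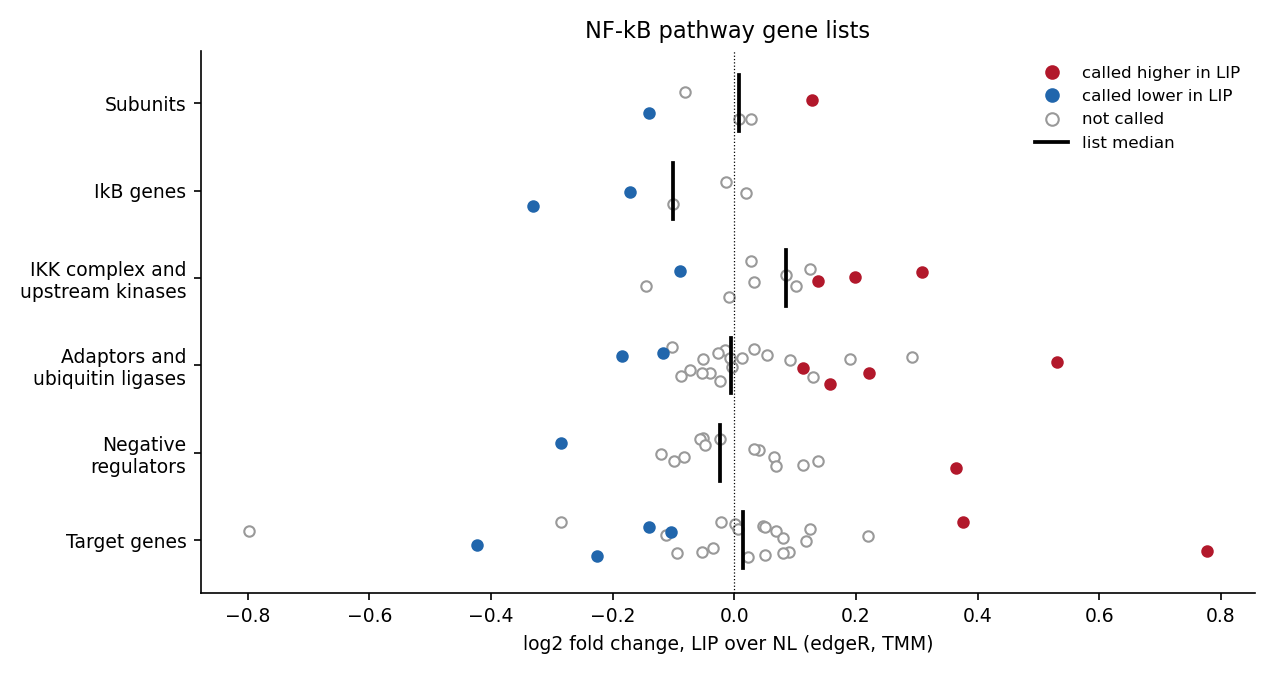
Log2 fold change, LIP over NL, of each tested gene in the subunit, IkB, IKK, adaptor, negative regulator and target lists, with the list median as a black bar. Called genes lie on both sides of 0 in every list but the IkB genes, where the 2 called genes are lower in LIP; under uncentred TPM no IkB gene was called.

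The genes most like Nfkbia across the 6 libraries, by Pearson correlation of log2 CPM among 6621 genes whose mean log2 CPM was 5 or more, were Ranbp3 (r = 0.990), Jade1 (0.987), Ssna1 (0.986), Slc25a1 (0.986) and Bloc1s1 (0.985). Each was lower in all LIP than in all NL libraries, with log2 fold changes from -0.16 to -0.08. With 6 points that share libraries and a group difference, such values are a description.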

How the data were processed

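Per the labels' protocols, sorted cells gave Trizol-extracted RNA, and polyA-selected mRNA was read as 100 bp pairs (BGISEQ), 45.0 M reads per library on average. The submitters' processing notes name STAR, HTSeq and the build GRCm38, but no version or role. The authors deposited estimated counts, FPKM and TPM for each gene and library, per the file headers and values; which tool made them is not stated. A further 6 columns of group means were not used.

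The design had assumed whole counts, so estimated counts were rounded; all 10 family members had whole counts. Genes were filtered with filterByExpr and tested with edgeR 4.0.16 (TMM, robust quasi-likelihood, R 4.3.3), and SEs were derived from the test statistic. FPKM served only to derive effective length for the length offset, a lowess trend with span 0.3. GC content came from the longest GENCODE M21 transcript and was known for 98.5% of tested genes. DESeq2 1.42.0 and limma 3.58.1 gave alternatives. Alternatives also changed size factors, filters, robust estimation, the replicate block, pseudocount and libraries used. The edgeR step was tested on simulated data.

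Members and gene lists were chosen with earlier results of these data known. The naming rule took all members, up to 4 genes with the smallest p per list, both sort genes, and the 5 genes most like the member with the smallest p. Of the genes it took from the lineage marker lists and the heat shock and immediate-early list, only Ly6c2 and Hspa1b are named. Chuk, Ikbkg (neither with whole counts), Tnfaip3, Tnf, Il1b, Il6 and Ly6g fall outside the rule and were named after their values were seen. The same holds for Hspa8, S100a8, S100a9 and the untested targets Cxcl2, Ccl2, Ptgs2, Saa3 and Csf2. Gene positions and promoters are from RefSeq, GRCm38.p6. Floors and intervals cover counting error and the spread between libraries only.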

Additional observations from a re-analysis of the deposited data

How the results depend on the processing

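Over 20 alternatives, all genes called were 1776 higher and 1984 lower in edgeR with TMM, 2756 and 1301 with total counts alone, 1167 and 1317 in DESeq2, 4568 and 540 on log2(TPM + 1), and 4560 and 542 on log2(TPM + 0.1), and 1437 to 1590 higher and 1550 to 1807 lower when 1 library was left out. The share of calls that were higher was 47.2% with TMM, 67.9% with total counts alone and 89.4% on either TPM scale. Of the family, 1 member was higher and 3 were lower. There were 0 higher in DESeq2 (2 lower), under the length and GC offset (3 lower) and with centred TPM (2 lower), 2 higher and 0 lower on both TPM scales, and between 0 and 1 higher and 1 and 3 lower when 1 library was left out. Of the 6 members that were not called, Nfkb1 kept its sign in all 20 alternatives, and Rel, Relb, Nfkbib, Nfkbie and Bcl3 changed sign in part of them. On the log2(TPM + 1) and log2(TPM + 0.1) scales Rel stood at 0.041 and 0.048, Nfkbib at 0.023 and 0.023, and Nfkbie at 0.111 and 0.117. Total counts alone put Nfkbie at 0.031. The offset for length and GC content put Relb at -0.036 and Bcl3 at -0.005. With 1 library left out, Relb ranged from -0.025 to 0.035, Nfkbie from -0.060 to 0.030 and Bcl3 from -0.080 to 0.068. The cause was not tested.

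Same-numbered LIP and NL libraries showed little shared deviation (r of 0.0294, -0.0373 and -0.0667 over 6616 genes). Differently numbered libraries ran from -0.144 to 0.165. With 3 libraries per group, such values cannot show whether same-numbered libraries were prepared together. With the replicate block, 1750 genes were higher and 1979 lower, 1 family member was higher and 2 were lower, and Nfkb2 stood at -0.14 with an adjusted p of 0.0507.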

Other observations

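Genes with a kappa B consensus match in the promoter window moved about as often as all genes with a window. Of 842 tested genes with a match, 15.8% were called higher and 15.8% lower in LIP, with a median log2 fold change of 0.00. Among all 10088 tested genes with a window, 14.1% were called higher and 16% lower, with a median of 0.00. These shares are a description and no test was run on them.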
